A study of Mus musculus with 6 samples.

Results

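Muscle atrophy ubiquitin ligases tag muscle proteins for breakdown, and the genes described here are 9 members of this system in the pressure-overloaded mouse heart. They are the ligases Fbxo32, Trim63, Trim54, Trim55 and Fbxo30, the FoxO transcription factors Foxo1, Foxo3 and Foxo4, and the growth inhibitor Mstn. The members were chosen by gene name as a functional group, and each of the 9 was found once among the 54532 genes of the count table. All 9 passed the low-count filter and were therefore among the 14774 genes tested.

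Left ventricular RNA of 3 TG and 3 NTG mice was sequenced, with 1 poly-A library from each heart, 4 weeks after aortic banding (AB), a surgical narrowing of the aorta that loads the left ventricle. The genotype label is HINT2CTG-Myh6Cre for TG and C57BL/6J for NTG. TG mice carry a CAG-HINT2 transgene that tamoxifen-activated Cre switches on under the Myh6 promoter, which is active in cardiomyocytes. All 6 hearts were banded, and the methods give male mice of 8 to 10 weeks at surgery. The labels and methods give the NTG mice neither a Cre allele nor tamoxifen, so the transgene, Cre and tamoxifen cannot be told apart in this comparison. No sham-operated heart was analysed here, so each difference is between banded hearts.

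In striated muscle, atrogin-1 (Fbxo32) and MuRF1 (Trim63) are the best known atrophy ligases. Atrogin-1 is the substrate-recognising F-box subunit of an SCF ligase, while the MuRF proteins are RING-finger ligases that bind titin and other sarcomere proteins. FoxO factors activate both genes when insulin and IGF-1 signalling through AKT is low, because AKT phosphorylates FoxO and keeps it out of the nucleus. Myostatin acts through activin receptors and SMAD factors and restrains muscle growth.

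The libraries held 14863568 to 17581220 counts on genes in NTG and 14944465 to 17235802 in TG. Mouse Hint2 had 793 to 859 counts in TG, 545 and 559 counts in NTG 2 and NTG 3, and 12 counts in the library labelled NTG 1. That value goes against the other NTG libraries, so the genotype of NTG 1 is in doubt. It was kept in NTG as labelled, and every NTG mean, SD and statement of separation includes it unless the text says otherwise. The tests of the members and the list medians are also given without it. All 8 cardiomyocyte markers were detected, with a summed level of 31421 to 38822 CPM in TG and 19695 to 32763 CPM in NTG, where CPM is the count scaled to library size with TMM factors. The 7 fibroblast markers summed to 2308 to 4007 CPM in TG and 4701 to 10840 CPM in NTG. The 8 skeletal muscle markers summed to only 2.16 to 3.03 CPM in TG and 2.20 to 2.81 CPM in NTG, with Myh4 at 0 counts in each library. The atrial myosin light chain Myl7 had 286, 3 and 0 counts in NTG 1, NTG 2 and NTG 3 and 22, 135 and 1044 counts in TG 1, TG 2 and TG 3. In bulk tissue, fewer cells of a type and less RNA per cell cannot be told apart.

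The promoter of Trim63 is shown because it holds 2 motifs named in the regulation of this gene, with that of its paralogue Trim54 for contrast. Each sequence is the 250 bases before the RefSeq start site on GRCm38.p6, 5′ to 3′ on the plus strand, on which both genes lie. The Trim63 window is chr4:134314870-134315119 and the Trim54 window is chr5:31116362-31116611. Capitals mark the FoxO core TGTTTAC and the glucocorticoid receptor palindrome GAACA, any bases at 3 positions, then TGTTC, each searched on both strands.
Trim63: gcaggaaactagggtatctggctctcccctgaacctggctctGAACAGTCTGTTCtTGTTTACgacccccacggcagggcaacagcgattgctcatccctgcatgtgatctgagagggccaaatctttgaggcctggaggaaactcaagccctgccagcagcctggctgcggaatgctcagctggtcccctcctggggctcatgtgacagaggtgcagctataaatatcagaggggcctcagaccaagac
Trim54: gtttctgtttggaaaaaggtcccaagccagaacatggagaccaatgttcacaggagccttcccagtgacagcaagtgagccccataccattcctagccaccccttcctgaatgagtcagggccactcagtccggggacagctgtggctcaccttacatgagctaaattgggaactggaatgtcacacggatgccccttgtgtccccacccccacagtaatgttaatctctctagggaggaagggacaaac
In Trim63 the palindrome lay 208 to 196 bases and the FoxO core 194 to 188 bases before the start site, so that they did not overlap. Of 32851 windows of the same length, 3.17% held TGTTTAC and 0.0396%, or 13 windows, held the palindrome, which reads GAACAGTCTGTTC in Trim63. RefSeq windows were matched for 6 of the 9 members, all but Fbxo32, Trim55 and Foxo4, and Trim63 was the only one of the 6 with either motif. E-boxes, CANNTG, were present in 66.2% of all windows, with 3 in Trim63, 2 in Trim54, 4 in Mstn and 1 in Foxo1. A match describes the letters of a window and is not a bound site.

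The question asked of each gene was whether its level differed between TG and NTG hearts after AB. A gene was called where its adjusted p was below 0.05 with a log2 ratio beyond 0.5 either way. By this rule edgeR's quasi-likelihood test called 0 of the 9 members and 0% of the genes tested. Before adjustment, 1 member, Trim55, had a p below 0.05, as did 18.6% of the genes tested. DESeq2 called 0 members and 3.95% of genes, 1.54% higher and 2.4% lower in TG, and 0 members against 18.3% of genes had an unadjusted p below 0.05 in it. The likelihood-ratio test of edgeR called 0 members and 3.69% of genes, 1.39% higher and 2.29% lower. With NTG 1 left out, edgeR called 0 members and 5.52% of genes, 2.67% higher and 2.85% lower. TG and NTG hearts were fully separated for 1 member, again Trim55, and for 23.5% of the genes tested. None of these shares is above its background.

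**Figure D1:**
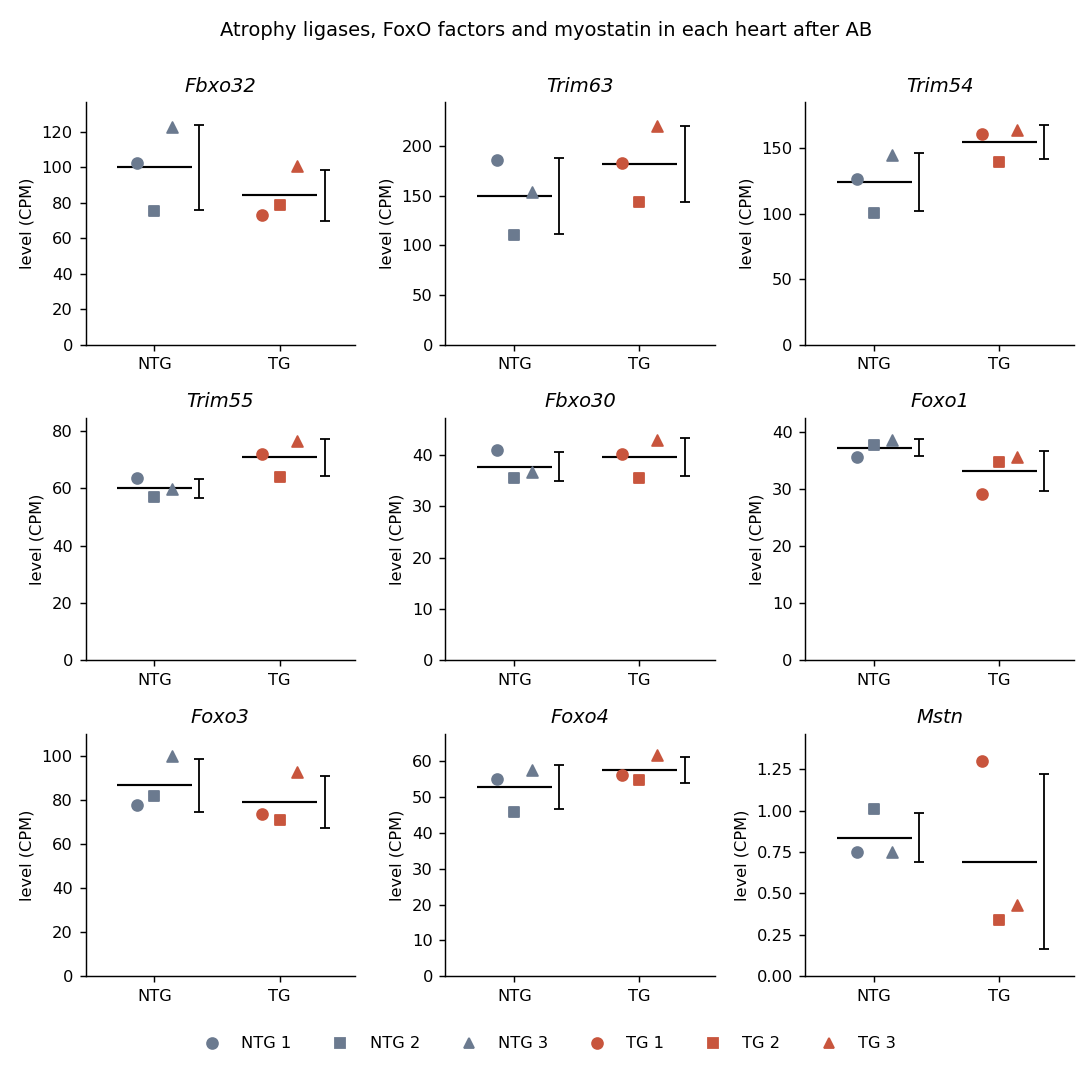
Level of each gene in CPM (vertical axes, from 0) in the 3 NTG and 3 TG hearts, with 1 point per library, its shape giving the replicate number, a line at the group mean and a bar for the SD beside it. Only for Trim55 do all TG points, from 63.8 to 76.5 CPM, lie above all NTG points, from 56.9 to 63.4 CPM.

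Fbxo32 (ENSMUSG00000022358) encodes atrogin-1 (chromosome 15, 58175879 to 58214932, minus strand). It measured 102, 75.1 and 122.5 CPM in NTG 1, NTG 2 and NTG 3 and 73.3, 78.5 and 101 CPM in TG 1, TG 2 and TG 3. The highest heart was an NTG heart and the lowest a TG heart, while NTG 2 lay among the TG hearts. The group means were 84.1 ± 14.5 CPM (SD, n = 3) in TG and 99.9 ± 23.8 CPM (SD, n = 3) in NTG. On the log2 scale TG over NTG came to −0.25 (SE 0.19, edgeR adjusted p = 0.509), with a 95% interval from −0.70 to 0.21. This interval allows a fold change from 0.616 to 1.15, so these 6 hearts could not settle whether a decrease of the call size was present. Leaving out 1 library at a time gave −0.42 to −0.075, and −0.23 without NTG 1. The ends of this range came from NTG hearts. Without NTG 2, the lowest of them, the log2 ratio was −0.42 (edgeR unadjusted p = 0.0271, adjusted p = 0.447), and without NTG 3, the highest, it was −0.075 (edgeR adjusted p = 0.876).

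Trim63 (ENSMUSG00000028834), at chromosome 4, 134315120 to 134329629, plus strand, encodes MuRF1. It measured 186, 110 and 153 CPM in NTG 1, NTG 2 and NTG 3 and 183, 144 and 220 CPM in TG 1, TG 2 and TG 3. TG 3 was highest and NTG 2 lowest, and the other 4 hearts were mixed between the groups. The means were 182 ± 38.2 CPM (SD, n = 3) in TG and 150 ± 38.1 CPM (SD, n = 3) in NTG. The fitted log2 difference of TG over NTG was 0.28 (SE 0.22, edgeR adjusted p = 0.507), with a 95% interval from −0.23 to 0.79. Without NTG 1, which had the highest Trim63 level among the NTG hearts, it was 0.47 (adjusted p = 0.216, edgeR), and it was 0.10 without NTG 2 and 0.12 without TG 3.

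Trim54 (MuRF3; ENSMUSG00000062077), a MuRF paralogue that associates with microtubules in striated muscle, is at chromosome 5, 31116712 to 31137630, plus strand. It measured 126, 101 and 145 CPM in NTG 1, NTG 2 and NTG 3 and 161, 140 and 164 CPM in TG 1, TG 2 and TG 3. TG 1 and TG 3 lay above all NTG hearts, and TG 2 lay just under NTG 3. In edgeR the log2 ratio of TG to NTG was 0.32 (SE 0.14, adjusted p = 0.282), with a 95% interval from −0.012 to 0.65. It was 0.45 without NTG 3, the highest NTG heart (edgeR unadjusted p = 0.0185, adjusted p = 0.395), and 0.19 without NTG 2, the lowest.

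Trim55 (MuRF2; ENSMUSG00000060913) is at chromosome 3, 19644474 to 19692421, plus strand. It measured 63.4, 56.9 and 59.8 CPM in NTG 1, NTG 2 and NTG 3 and 71.8, 63.8 and 76.5 CPM in TG 1, TG 2 and TG 3. Each TG heart lay above each NTG heart, though TG 2 and NTG 1 nearly touched. An exact two-sided permutation test gave p = 0.1, which is the smallest value possible with 3 hearts in each group. Its log2 ratio of TG to NTG was 0.24 (SE 0.098, edgeR unadjusted p = 0.0423 and adjusted p = 0.254), with a 95% interval from 0.011 to 0.46. The upper bound, a 1.38-fold difference, is under the size that the call requires. The unadjusted p rose to 0.05 or more when TG 1, TG 3, NTG 2 or NTG 3 was left out, and also with DESeq2, with the likelihood-ratio test, with no low-count filter and with scaling by library size alone.

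The 3 MuRF genes thus had higher fitted levels in TG hearts in each of the 22 alternatives tried, and none passed the adjusted test in any. Of the 14774 genes, 48.7% had a higher fitted level in TG. All 8 cardiomyocyte markers had higher fitted levels in TG too, with a median log2 fold change of 0.43, and their part in the values of these muscle genes was not tested. Per 1000 CPM of the summed cardiomyocyte markers, a scale chosen after the values were seen, Trim55 was 1.98 ± 0.112 (SD, n = 3) in TG and 2.36 ± 0.486 (SD, n = 3) in NTG. Trim54 was 4.33 ± 0.165 (SD, n = 3) in TG and 4.81 ± 0.848 (SD, n = 3) in NTG on that scale, and Trim63 was 5.07 ± 0.742 (SD, n = 3) and 5.68 ± 0.0813 (SD, n = 3). On that scale all 3 means were therefore lower in TG, the opposite of the order in CPM.

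**Figure D2:**
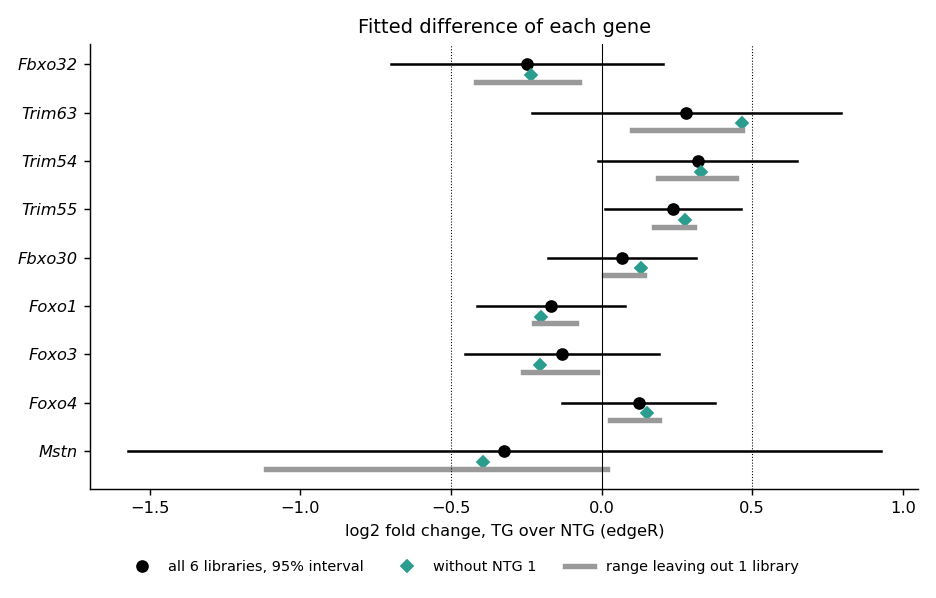
Log2 fold change of TG over NTG (horizontal axis) for the 9 genes, with black points and lines for the edgeR estimate and its 95% interval, green diamonds for the fit without NTG 1 and grey bars for the range when 1 library at a time is left out. Dotted lines mark 0.5 in size, and only the interval of Trim55, from 0.011 to 0.46, lies on one side of 0.

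Fbxo32 and Trim63 are often read together as atrophy markers, and here their fitted differences had opposite signs, neither past the test. The ratio of Fbxo32 to Trim63 in CPM, chosen after the values were seen and given with no test, was 0.548, 0.681 and 0.799 in NTG 1, NTG 2 and NTG 3. It was 0.401, 0.545 and 0.457 in TG 1, TG 2 and TG 3. All TG hearts lay below all NTG hearts, with TG 2 and NTG 1 nearly equal, and without NTG 1 the lowest NTG ratio was 0.681. The means were 0.468 ± 0.0724 (SD, n = 3) in TG and 0.676 ± 0.126 (SD, n = 3) in NTG. Among single genes, 23.5% of those tested were separated in CPM, and the share of gene ratios so separated was not computed. Per 1000 CPM of cardiomyocyte markers, Fbxo32 was 1.89, 2.50 and 2.71 in the TG hearts and 3.11, 3.81 and 4.61 in the NTG hearts. These values do not overlap, whereas those of Trim63 do, and the share of all genes separated on this scale was not computed. The separation was not particular to Fbxo32, since Fbxo30 was also separated on this scale, at 1.03 to 1.15 in TG and 1.25 to 1.80 in NTG, and all 9 members had a lower mean in TG. As the marker sum itself was higher on average in TG, these values do not separate a member from the denominator.

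**Figure D3:**
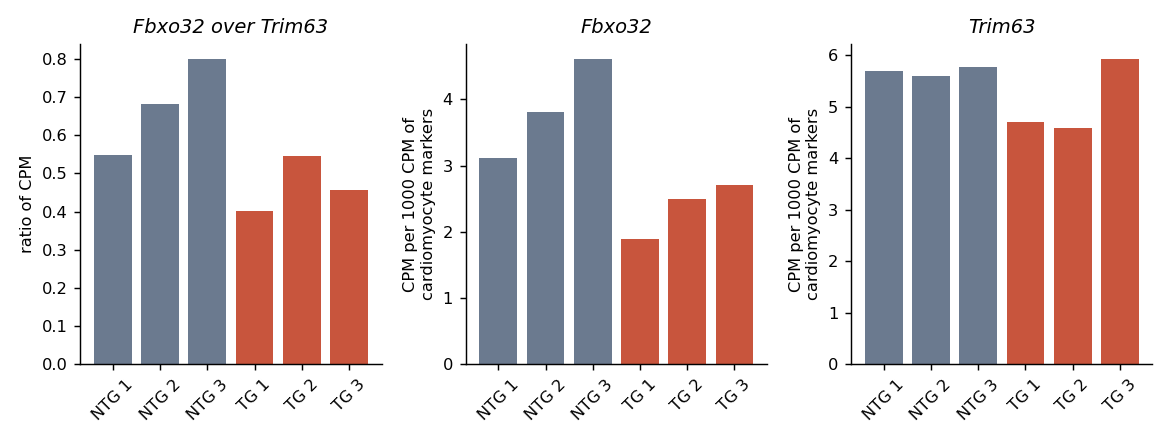
Ratio of Fbxo32 to Trim63 in CPM (left), and Fbxo32 (middle) and Trim63 (right) per 1000 CPM of 8 cardiomyocyte markers, 1 bar per heart, NTG in grey and TG in red, with axes from 0. The ratio spans 0.401 to 0.545 in TG and 0.548 to 0.799 in NTG.

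Fbxo30 (MUSA1; ENSMUSG00000047648), an F-box ligase that BMP signalling restrains in muscle, is at chromosome 10, 11281330 to 11298052, plus strand. It measured 40.9, 35.5 and 36.6 CPM in NTG 1, NTG 2 and NTG 3 and 40.2, 35.5 and 42.8 CPM in TG 1, TG 2 and TG 3, so that the groups were interleaved. The log2 ratio of TG to NTG was 0.070 (edgeR adjusted p = 0.748), with a 95% interval from −0.18 to 0.32 that leaves out a difference of the size required for a call. It ranged from 0.0072 without TG 3 to 0.14 without TG 2.

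Foxo1 (ENSMUSG00000044167), a direct AKT target, is at chromosome 3, 52268336 to 52353221, plus strand. It was 35.6, 37.7 and 38.5 CPM in NTG 1, NTG 2 and NTG 3 and 29.1, 34.8 and 35.6 CPM in TG 1, TG 2 and TG 3. TG 3 and NTG 1 were level with each other, and TG 1 was lowest. The TG to NTG log2 ratio was estimated at −0.17 (SE 0.11, edgeR adjusted p = 0.414), with a 95% interval from −0.41 to 0.078. It ranged from −0.22 without TG 3 to −0.085 without TG 1.

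Foxo3 (ENSMUSG00000048756), the FoxO factor best known for activating Fbxo32, is encoded at chromosome 10, 42181841 to 42276755, minus strand. It measured 77.8, 82.2 and 100.3 CPM in NTG 1, NTG 2 and NTG 3 and 73.6, 71.2 and 93.0 CPM in TG 1, TG 2 and TG 3. TG 1 and TG 2 lay below all NTG hearts and TG 3 lay above NTG 1 and NTG 2. On the log2 scale TG over NTG came to −0.13 (SE 0.14, edgeR adjusted p = 0.639), with a 95% interval from −0.45 to 0.19. It was −0.26 without TG 3 and close to 0, at −0.014, without NTG 3.

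Foxo4 (ENSMUSG00000042903), at chromosome X, 101254528 to 101260873, plus strand, had 55.02, 45.9 and 57.7 CPM in NTG 1, NTG 2 and NTG 3 and 56.0, 54.9 and 61.8 CPM in TG 1, TG 2 and TG 3. NTG 2 was low and the other 5 hearts were close together. The fitted log2 difference of TG over NTG was 0.12 (SE 0.11, edgeR adjusted p = 0.560), with a 95% interval from −0.13 to 0.38. It ranged from 0.029 without NTG 2 to 0.19 without NTG 3. Per length, the 3 FoxO genes together came to 30.8 ± 2.86 CPM per kb (SD, n = 3) in TG and 30.9 ± 3.01 CPM per kb (SD, n = 3) in NTG. Of that sum, Foxo4 made up 53.7% ± 1.61 (SD, n = 3) in TG and 49.0% ± 3.03 (SD, n = 3) in NTG, Foxo3 made up 33.9% and 37.0%, and Foxo1 made up 12.4% and 13.98%. The share of Foxo4 overlapped between the groups, as NTG 1 at 52.3% lay above TG 3 at 52.0%.

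Mstn (ENSMUSG00000026100), the gene of myostatin, is at chromosome 1, 53061640 to 53068079, plus strand, and was close to the lower limit of the test. It had 11, 19 and 13 counts in NTG 1, NTG 2 and NTG 3 and 18, 6 and 7 counts in TG 1, TG 2 and TG 3. TG 1 was the highest heart in CPM and TG 2 the lowest, so that the TG hearts spanned the NTG hearts. In edgeR the log2 ratio of TG to NTG was −0.32 (SE 0.54, adjusted p = 0.770), and its 95% interval from −1.57 to 0.93 allows a difference of more than the call size in either direction. Without TG 1 it was −1.11 (edgeR adjusted p = 0.472), without TG 2 it was 0.019, and DESeq2 gave Mstn no adjusted p.

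With NTG 1 left out, the fitted signs of all 9 members were as with all libraries. The log2 ratios were then 0.33 for Trim54, 0.28 for Trim55 and 0.13 for Fbxo30. Those of the FoxO genes were −0.20 for Foxo1, −0.20 for Foxo3 and 0.15 for Foxo4, and that of Mstn was −0.39. The smallest adjusted p among the 9 in this fit was 0.154, for Trim55 (edgeR).

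Per length of the gene model, the order of the levels over the 6 libraries was Trim54, Trim63, Trim55, Foxo4, Fbxo32, Foxo3, Fbxo30, Foxo1 and Mstn. Trim54 averaged 97.1 ± 16.3 CPM per kb (SD, n = 6), Trim63 58.5 ± 13.5 CPM per kb (SD, n = 6) and Trim55 24.6 ± 2.79 CPM per kb (SD, n = 6). Per length, the MuRF genes therefore stood above Fbxo32 at 13.2 ± 2.81 CPM per kb (SD, n = 6) in this heart muscle. Before division by length, Fbxo32 lay above Trim55 in each library, at 73.3 to 122.5 CPM against 56.9 to 76.5 CPM. Foxo3 likewise lay above Foxo4 in each library before that division. Foxo4 at 15.8 ± 1.504, Fbxo32 and Foxo3 at 11.0 ± 1.51 CPM per kb (SD, n = 6) were neighbours whose ranges overlapped, and each of these 2 steps held in 5 of 6 libraries. The other 6 steps held in each library, although the ranges of Trim54 and Trim63 overlapped. Foxo1 averaged 4.06 CPM per kb and Mstn 0.282 CPM per kb, a 14.4-fold step, the largest in the order.

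**Figure D4:**
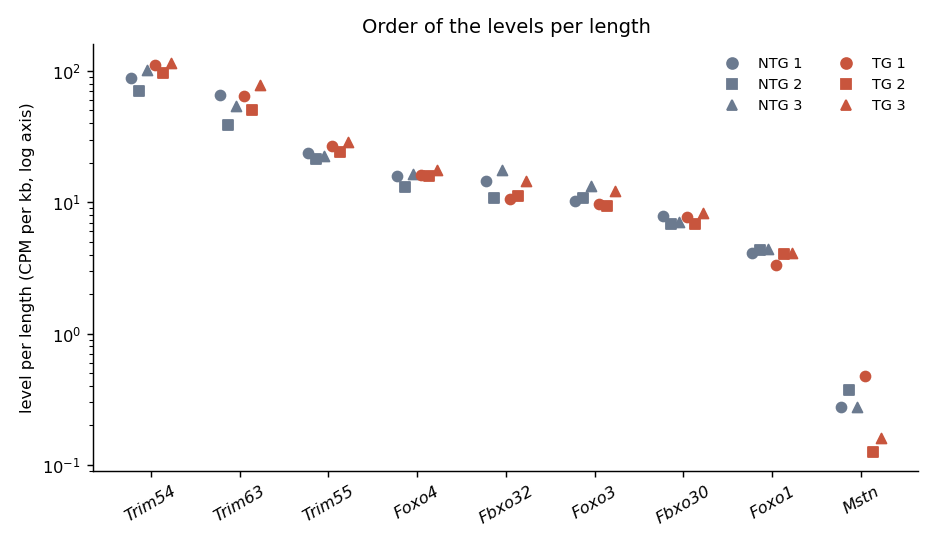
Level per length in CPM per kb (vertical log axis) for the 9 genes in order of their mean, with 1 point per library and NTG in grey, TG in red. The MuRF genes stand highest, from 24.6 to 97.1 CPM per kb on average, and Mstn lowest at 0.282 CPM per kb.

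Likeness between genes was measured as the root mean square difference of log2 CPM over the 6 libraries, each gene centred on its own mean, and is a description. The tested genes nearest to Fbxo32 were Kbtbd8 at 0.081, Sorbs2os at 0.099 and Zfp760 at 0.11. Sorbs2os is an antisense gene, whose reads may be those of its partner because no strand setting is given. Those nearest to Trim63 were Smim26 at 0.034, Clcn2 at 0.063 and Dnaaf3 at 0.064, and those nearest to Mstn were Tac1, Rpl36-ps12 and Zc2hc1c at 0.19 to 0.20. Among the members, Foxo3 at 0.17 was nearest to Fbxo32, with 66 of the 14773 other genes nearer. Trim63 lay at 0.33 from Fbxo32, close to the median of 0.35 over all genes. Trim54 at 0.19 and Trim55 at 0.21 were the members nearest to Trim63, with 810 and 1081 of the other genes nearer. Foxo4 at 0.21 and Fbxo30 at 0.23 followed closely. Each of these members had its highest level in TG 3 and its lowest in NTG 2, as Trim63 did, so the pattern was not particular to the MuRF genes. TG 3 also had the highest Myl7 count of the 6 libraries and NTG 2 the highest fibroblast sum, at 10840 CPM, and the part of either in these patterns was not tested.

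The genes around the members were read from 6 lists. A list is described by its counts and median beside those of all genes tested, of which 8.83% were higher and 9.76% lower with a p below 0.05 before adjustment, with a median log2 fold change of −0.0081. Without NTG 1 the list medians were −0.14 for the FoxO targets, 0.12 for the other ligases, 0.043 for ubiquitin and the SCF core, −0.044 for insulin signalling, −0.66 for myostatin signalling and 0.14 for the partners. Without NTG 2 they were −0.074, 0.023, 0.017, 0.037, −0.35 and 0.051 in the same order. By edgeR's adjusted test 0 genes of any list were called. Insr and Irs2 are on both the FoxO target and the insulin signalling list, and Myh6, Tnni3, Myl2 and Actn2 are both MuRF partners and cardiomyocyte markers. Gabarapl1, Pdk4, Pink1, Cblb, Asb2, Tcap, Ckm, Srf, Fstl3, Ltbp3 and Tll1 are named in the next paragraphs after their values were seen, because they belong to a short count. Myh6, Cul1, Skp1a, Acvr2a, Acvr2b, Acvr1b, Ttn and Ppp3ca were likewise named after their values were seen.

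Among 24 FoxO target genes, all of them tested, 5 were lower and 1 was higher in TG at an unadjusted p under 0.05, and the median log2 fold change was −0.067. This median was −0.14 without NTG 1, −0.14 without TG 3 and −0.16 with scaling by library size alone. The lower genes were Bcl6, a transcriptional repressor, the lysosomal protease Ctsl, the mitophagy receptor Bnip3, Gabarapl1, which encodes an autophagosome protein, and Pdk4, an inhibitor of pyruvate dehydrogenase. The higher one was Pink1, a mitophagy kinase. Bcl6 measured 42.6, 55.3 and 48.8 CPM in NTG 1, NTG 2 and NTG 3 and 27.0, 29.8 and 25.6 CPM in TG 1, TG 2 and TG 3. The NTG hearts were all well above the TG hearts, at a log2 ratio of −0.83 (SE 0.12; edgeR adjusted p = 0.196, DESeq2 adjusted p = 6.58e-05). Bnip3 had 101 ± 7.93 CPM (SD, n = 3) in TG and 148 ± 29.4 CPM (SD, n = 3) in NTG, and Ctsl had 185 ± 17.6 CPM (SD, n = 3) in TG and 259 ± 13.2 CPM (SD, n = 3) in NTG. DESeq2 called Bcl6 and Bnip3 lower, where it called 2.4% of all genes lower, and edgeR without NTG 1 called the same pair. The summed level of the 6 immune markers was 469 to 668 CPM in TG and 691 to 1219 CPM in NTG, and its part in the values of Bcl6 and Ctsl, which immune cells also express, was not tested. In the promoter windows, 2 of 22 target genes with a window held TGTTTAC, namely Txnip and Bcl2l11, and none of the 5 lower genes did. As only 3.17% of all windows held it, 5 genes are too few for their lack of a match to mean anything.

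Of the 24 other muscle ubiquitin ligases, 7 were higher and 2 lower in TG at an unadjusted p under 0.05, with a median log2 fold change of 0.073. The smallest p belonged to Rnf207, a RING-finger protein tied to cardiac repolarisation, Stub1, a co-chaperone ligase, and Fbxl22, a sarcomeric F-box protein. Rnf207 measured 14.4, 8.76 and 8.16 CPM in NTG 1, NTG 2 and NTG 3 and 25.4, 17.0 and 21.1 CPM in TG 1, TG 2 and TG 3. Each TG heart lay above NTG 1, the highest NTG heart, at a log2 ratio of 1.02 (SE 0.25; edgeR adjusted p = 0.196, DESeq2 adjusted p = 0.00934). Stub1 and Fbxl22 had log2 fold changes of 0.36 and 0.60. Cblb, a brake on T-cell and growth factor receptor signalling, was among the lower genes. DESeq2 called Rnf207 alone in this list, where it called 1.54% of all genes higher. With NTG 1 left out, edgeR called Rnf207 and Asb2, a cullin adaptor of muscle, where it called 2.67% of all genes higher.

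The 19 genes of ubiquitin, the SCF core and the enzymes that load ubiquitin had a median log2 fold change of 0.027, with 2 higher and 1 lower at an unadjusted p under 0.05. Among these were the E2 enzyme Ube2g1 at 0.24, with 97.4 ± 2.64 CPM (SD, n = 3) in TG and 82.6 ± 6.42 CPM (SD, n = 3) in NTG, and the E1 enzyme Uba6 at −0.28, with 13.6 ± 0.4996 CPM (SD, n = 3) in TG and 16.5 ± 1.66 CPM (SD, n = 3) in NTG. The scaffold Cul1 and the adaptor Skp1a, which carry atrogin-1, had log2 fold changes of −0.054 and 0.043.

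Insulin, PI3K and AKT signalling, which lies upstream of FoxO, had 1 gene higher and 2 lower of 25 at an unadjusted p under 0.05, with a median log2 fold change of −0.0059. Igf1, the ligand, measured 38.8, 66.6 and 43.4 CPM in NTG 1, NTG 2 and NTG 3 and 19.2, 35.4 and 20.7 CPM in TG 1, TG 2 and TG 3. The groups did not overlap, with TG 2 just below NTG 1, at a log2 ratio of −0.98 (SE 0.29; edgeR adjusted p = 0.204, DESeq2 adjusted p = 0.0249). Igf1 is made by fibroblasts and macrophages of the heart, and the fibroblast and immune marker sums, given above, were lower in TG in the same way, a relation that was not tested. The receptor Igf1r was 41.2 ± 5.38 CPM (SD, n = 3) in TG and 50.4 ± 3.43 CPM (SD, n = 3) in NTG, a log2 fold change of −0.29. Akt1, the kinase that acts on FoxO proteins, was 302 ± 25.8 CPM (SD, n = 3) in TG and 232 ± 30.2 CPM (SD, n = 3) in NTG, a log2 fold change of 0.38. Neither gene was called, with an adjusted p of 0.215 by edgeR and 0.101 by DESeq2 for Akt1, and of 0.240 by edgeR and 0.281 by DESeq2 for Igf1r.

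Most genes of myostatin and activin signalling had lower fitted levels in TG. Of 21 listed genes 19 were tested, 14 were fitted lower and 5 higher, and 10 were lower and 0 higher in TG at an unadjusted p under 0.05, with a median log2 fold change of −0.53, which was −0.35 without NTG 2. Inhbb, an activin subunit, measured 42.5, 131 and 89.6 CPM in NTG 1, NTG 2 and NTG 3 and 14.2, 28.4 and 10.9 CPM in TG 1, TG 2 and TG 3. All TG hearts lay below NTG 1, the lowest NTG heart, at a log2 ratio of −2.29 (SE 0.50; edgeR adjusted p = 0.196, DESeq2 adjusted p = 0.00918). Tgfbr1, a type I receptor, had 48.2 ± 4.45 CPM (SD, n = 3) in TG and 83.9 ± 23.2 CPM (SD, n = 3) in NTG, a log2 fold change of −0.80. The ligand trap Dcn, at −0.65, is also on the fibroblast marker list, on which 7 of 7 genes had lower fitted levels in TG with a median log2 fold change of −1.12. The part of fibroblast content in this list was not tested. DESeq2 called 5 of the 19 lower, Inhbb, Tgfbr1, Fstl3, Ltbp3 and Dcn, where it called 2.4% of all genes lower. With NTG 1 left out, edgeR called Tgfbr1 and the protease Tll1 lower, where it called 2.85% of all genes lower. The list holds ligand traps as well as ligands and receptors, so its median gives no direction of signalling. Of the receptors that myostatin uses, the type II receptors Acvr2a and Acvr2b had log2 fold changes of −0.077 and 0.27. The type I receptor Acvr1b, at −0.53 (edgeR unadjusted p = 0.0276, adjusted p = 0.225), did not overlap between the groups.

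Substrates and binding partners of the MuRF proteins and atrogin-1 had 5 genes higher and 1 lower of 18 at an unadjusted p under 0.05, with a median log2 fold change of 0.11. The higher genes were the sarcomere genes Myl2, Tnni3 and Tcap, the creatine kinase Ckm and the transcription factor Srf, and the lower one was Nfatc4, a target of calcineurin. Tnni3, a MuRF1 substrate, had 2467 ± 443 CPM (SD, n = 3) in TG and 1619 ± 405 CPM (SD, n = 3) in NTG, a log2 fold change of 0.61. Myl2, at 0.59, and Tnni3 are also cardiomyocyte markers. DESeq2 with all libraries and edgeR without NTG 1 called 0 of the 18. In 3 of the 22 alternatives genes of this list were called, each time by DESeq2 with 1 library left out. DESeq2 without NTG 1 called the most, 5, when it called 896 genes higher and 877 lower of the 15136 tested. These were Tnni3, Myh6, Myl2 and Ckm, with higher fitted levels in TG, and Nfatc4, with a lower one. Titin (Ttn), to which the MuRF proteins bind, had a log2 fold change of 0.19, and the calcineurin gene Ppp3ca, an atrogin-1 substrate, −0.11.

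**Figure D5:**
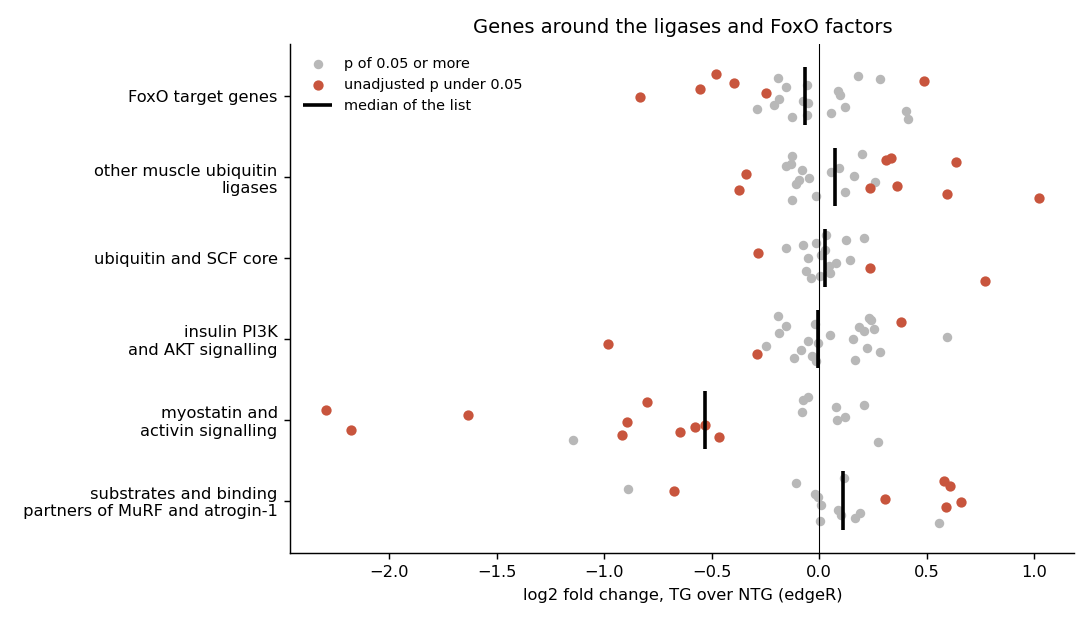
Log2 fold change of TG over NTG (horizontal axis) for each tested gene of the 6 lists, with genes at an unadjusted p under 0.05 in red and a black bar at the median of the list. The list of myostatin and activin signalling has its median at −0.53, and the other 5 medians lie between −0.067 and 0.11.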

How the data were processed

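The authors cleaned the reads, mapped them and counted reads per gene with featureCounts, and deposited raw counts, 1 column per heart, without normalization. The submitters' processing notes name HISAT2, DESeq2 and the build GRCh38, a human build, whereas the deposited identifiers and positions are mouse, and 98.3% of 54409 matched genes had the positions of GENCODE M21 (GRCm38). The strand setting and the handling of multi-mapping reads are not given in the sources used here.

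The test was run with edgeR 4.0.16 in R 4.3.3 (TMM, filterByExpr by group, robust quasi-likelihood test of TG against NTG, no covariate, Benjamini-Hochberg adjustment over all genes tested). Levels are TMM-scaled CPM, per kb of the deposited gene length where genes were compared, and log2 CPM has a prior count of 2. Standard errors and 95% intervals come from the quasi-likelihood F statistic. Mstn had only 6 to 19 counts per library, and the part of depth in the width of its interval was not tested. P-values measure the spread between hearts, which the labels do not describe further. The scripts were tested on simulated data with known changes. The 22 alternatives were 3 scalings, 2 filters, robust = FALSE, DESeq2 1.42.0, limma 3.58.1 (voom), the likelihood-ratio test, a replicate block, and edgeR and DESeq2 with each library left out. The named genes were all members, the called or else the 3 genes of smallest p in each list, and the 3 nearest genes of Fbxo32, Trim63 and Mstn. Members and lists were chosen with earlier results of these data known, and the lists come from recalled biology. Antisense or intronic genes overlapping Fbxo32, Trim54, Trim55 and Foxo1 had 0 to 16 counts. Some genes of the lists are counted but not reported here by name.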

Additional observations from a re-analysis of the deposited data

How the results depend on the processing

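With 3 hearts a group, the intervals of Fbxo32, Trim63 and Trim54 reach past the call size, and that of Mstn, a gene of low counts, is the widest of the 9. In all 22 alternatives 0 members were called, and the fitted sign stayed the same for 7 of 9. Fbxo30 turned to −0.015 with scaling by library size alone, and Mstn, which ranged from −1.11 to 0.019 with 1 library left out in edgeR, turned to 0.019 there and to 0.041 in DESeq2 without TG 2. Mstn had no value under the filter of 10 counts in every sample. At an unadjusted p under 0.05, library size scaling, DESeq2 and the likelihood-ratio test had 0 members, and leaving out 1 library gave 0 to 2 with either tool. With edgeR it was 0 without TG 1 or TG 3 and 2 without TG 2 (Trim54 and Trim55). With DESeq2 it was 2 without TG 2 and, as Trim63 and Trim55, without NTG 1. In some settings the count stayed at 1 with another gene, Fbxo32 without NTG 2 and Trim54 without NTG 3 in both tools, and Trim54 with no low-count filter. The cause was not tested. Library size scaling moved the share of higher genes among all at that p from 47.5% to 33.2%, and the list medians to −0.16 for the FoxO targets, −0.0093 for the other ligases, −0.057 for ubiquitin and the SCF core, −0.098 for insulin signalling, −0.62 for myostatin signalling and 0.028 for the partners. The median of insulin signalling, close to 0, had no stable sign, and ranged from −0.044 without NTG 1 to 0.041 without TG 2 in edgeR and from −0.036 to 0.051 in DESeq2 with 1 library left out.

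Over all genes, edgeR's quasi-likelihood test called 0, against 116 higher and 116 lower with no low-count filter, 228 and 355 in DESeq2, 206 and 339 with the likelihood-ratio test, and 404 and 432 without NTG 1. In the lists it called 0 genes. The FoxO targets had 2 called with no low-count filter, 2 in DESeq2, 1 with the likelihood-ratio test, 0 to 2 without 1 library in edgeR and 1 to 4 in DESeq2. The other ligases had 1 by DESeq2 and by the likelihood-ratio test, and 0 to 2 and 0 to 3 without 1 library. Ubiquitin and the SCF core had 1 by each of these tests and 0 to 1 without 1 library. Insulin signalling had 1 by each and 0 to 2 without 1 library. Myostatin signalling had 1 with no filter, 5 by each of these tests, and 0 to 2 and 0 to 9 without 1 library. The partners had 0 to 5 without 1 library.

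The sample titles number the libraries 1 to 3 and do not say whether the numbers pair hearts. In deviations from the group means, same-numbered libraries had correlations of 0.081, 0.17 and −0.25, and the others ranged from −0.25 to 0.17. Deviations from a mean of 3 hearts cancel within a group, so these correlations cannot settle whether the hearts were paired. With the replicate block 2 members, Trim54 and Trim55, had an unadjusted p under 0.05, and 84 genes were called higher and 147 lower, against 0 without it. In the block fit 1 FoxO target, 2 other ligases, 1 insulin signalling and 2 myostatin signalling genes were called.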

Other observations

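The 6 endothelial markers summed to 1620 to 1774 CPM in TG and 1509 to 1741 CPM in NTG, and the 6 smooth muscle and pericyte markers to 1244 to 1504 CPM and 1129 to 1467 CPM. The 5 erythroid markers, which include near-identical haemoglobin copies, summed to 762 to 908 CPM in TG and 1310 to 2245 CPM in NTG. The 5 adipocyte markers stayed at or under 2.72 CPM in sum in each library, with Lep at 0 counts in all.

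The ratio of Foxo1 to Foxo4 in CPM, chosen after the values were seen and given with no test, was 0.519, 0.634 and 0.576 in TG 1, TG 2 and TG 3 and 0.646, 0.822 and 0.668 in NTG 1, NTG 2 and NTG 3. The hearts of the groups did not overlap in it, with TG 2 just below NTG 1. The share of gene ratios so separated was not computed. The ratio of Foxo3 to Foxo4 was 1.31, 1.30 and 1.5045 in TG and 1.41, 1.79 and 1.74 in NTG, and overlapped.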
